A study of Mus musculus with 12 samples.

Results

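The genes described here are the glycolytic enzymes of mouse, the enzymes that regulate them, and the carriers of glucose and lactate in the cell membrane, 34 genes chosen by their function and taken by Ensembl identifier and symbol. They were 34 of the 37991 genes counted, and 32 of them were among the 12837 genes with enough reads to test. The cells were induced MEL cells, an established mouse erythroleukemia line that matures along the red cell path when induced. Each of 4 groups had 3 libraries of polyadenylated RNA. Control cells were wild-type MEL. KD cells carried a knockdown of LDB1, an adaptor protein that holds erythroid transcription factors together and links distant enhancers to promoters. The delta45 cells were knockdown cells that expressed the LDB1 construct named delta 4/5, and FL cells were knockdown cells that expressed full-length LDB1, so the knockdown was shared by all groups except control. The sources used here do not give the inducing agent, the time of induction, the means of knockdown, whether a line is 1 clone, or the part of LDB1 that delta 4/5 lacks. Nor do they tie the 3 libraries of a group to separate cultures, and the p-values then describe only how far these libraries scatter, which may be technical scatter.

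Glycolysis splits glucose into pyruvate in the cytosol. Glucose enters through carriers of the SLC2 family, is trapped by hexokinase, is committed by phosphofructokinase, and leaves the lower steps as pyruvate, which lactate dehydrogenase reduces to lactate for export by carriers of the SLC16 family. Mature red cells have no mitochondria and make their ATP by this path alone, and they divert part of the flux into 2,3-bisphosphoglycerate, which lowers the oxygen affinity of hemoglobin. In many cell types the genes of the path are raised together by the hypoxia-inducible factor HIF-1, which binds promoters at a short core written ACGTG or GCGTG.

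Each library held 8783970 to 20464959 gene reads, and levels are CPM, counts divided by the library's TMM-scaled total. The targeted gene followed the labels: Ldb1 stood at 743, 773 and 637 CPM in control, 159, 132 and 97.1 in KD, 750.4, 781 and 764 in delta45 and 3696, 3411 and 3210 in FL, and transcripts of a construct and of the cell's own gene cannot be told apart. KD was the group with the widest spread, with replicate correlations of log2 CPM down to 0.9568 against 0.9862 or more in the others, and KD replicate 1 stood apart for many of the genes below. The sum of 10 red cell markers, 0 of them at 0, ran over the libraries of control from 11560 to 12470 CPM, over KD from 3470 to 6673, over delta45 from 5806 to 6033, and over FL from 31120 to 37960. The lowest library sum of 8 megakaryocyte markers was 849 CPM in control, 812 in KD, 181 in delta45 and 2843 in FL. Myeloid markers (9 genes) summed to at most 13.7 CPM, lymphoid ones (Cd8a and Pax5 among those at 0 in every library) to at most 45.3, and stromal and endothelial ones (8 genes, Col1a2 and Dcn at 0) to at most 51.8.

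The 34 genes together held a smaller share of the uniquely placed gene reads in delta45 than in any other group. Their share of gene reads was 1.477, 1.653 and 1.311% in control, 1.076, 1.61 and 1.583% in KD, 1.182, 1.292 and 1.33% in FL and 0.3517, 0.3675 and 0.3756% in delta45. The delta45 libraries lay below the other 9 and barely differed from each other, and KD replicate 1 lay below the other KD libraries. The group means were 1.48 ± 0.171% (SD, n = 3) in control, 1.42 ± 0.301% in KD, 0.365 ± 0.0121% in delta45 and 1.27 ± 0.077% in FL. With globin genes left out of the total, the delta45 mean was 0.366% and the FL mean 1.30%. In bulk RNA, fewer cells of a kind and less RNA per cell cannot be told apart.

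**Figure D1:**
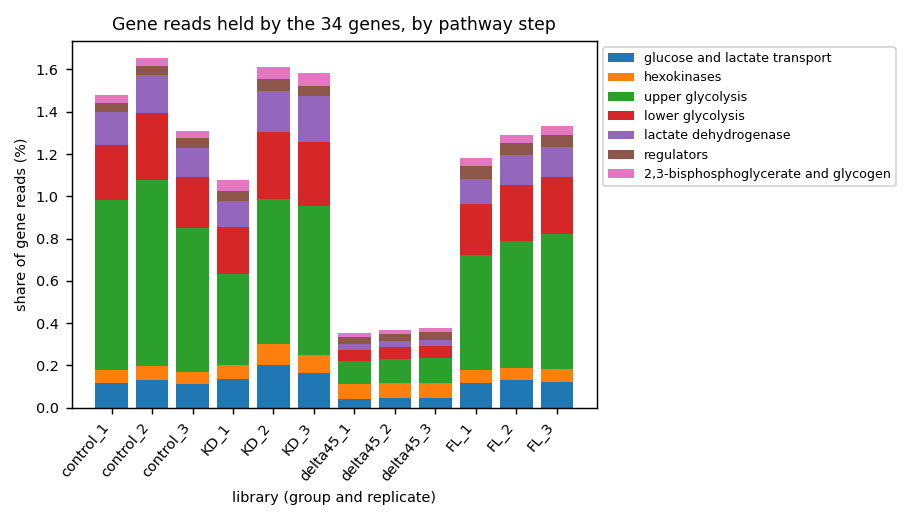
Share of gene reads (percent, vertical axis) held by the 34 genes in each of the 12 libraries (horizontal axis), stacked by pathway step. The 3 delta45 columns end between 0.3517 and 0.3756%, and the other 9 between 1.076 and 1.653%.

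Most steps of the path were lower in delta45 than in KD. Of the 32 genes tested, 26 fell and 4 rose at an edgeR adjusted p under 0.05, beside 30.7% of all tested genes lower and 29.2% higher in the same comparison. The median log2 change was -1.98 over the 32 genes and -0.01 over all tested genes, and 16 of the 32 fell by more than 2 on the log2 scale. The 4 that rose were Slc16a1, Pklr, Pfkfb2 and Pfkfb3, and Hk1 and Bpgm did not pass. The lowest value of any of the 32 was 2.5 CPM, for Pgam1 in delta45, so none entered the test through 1 group alone. Of the 2 genes not tested, Hk3 had 1 read in all 12 libraries and Ldhb had 0. With KD replicate 1 left out, 25 fell and 4 rose. The calls of 4 small falls were lost with 1 library left out: Eno3 (edgeR adjusted p = 0.0575 without KD replicate 1 and 0.0593 without delta45 replicate 3), Pdk2 (0.061 without delta45 replicate 1), Pdk3 (0.0615 to 0.157 without KD replicate 3 or any delta45 library) and Pgm2 (0.0559 to 0.134 without KD replicate 1 or any delta45 library). Megakaryocyte markers moved the same way, 6 of 7 tested being lower in delta45 than in KD, while 4 of 10 red cell markers were lower and 3 higher, and the part of such shifts in cell state in the glycolytic values was not tested.

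**Figure D2:**
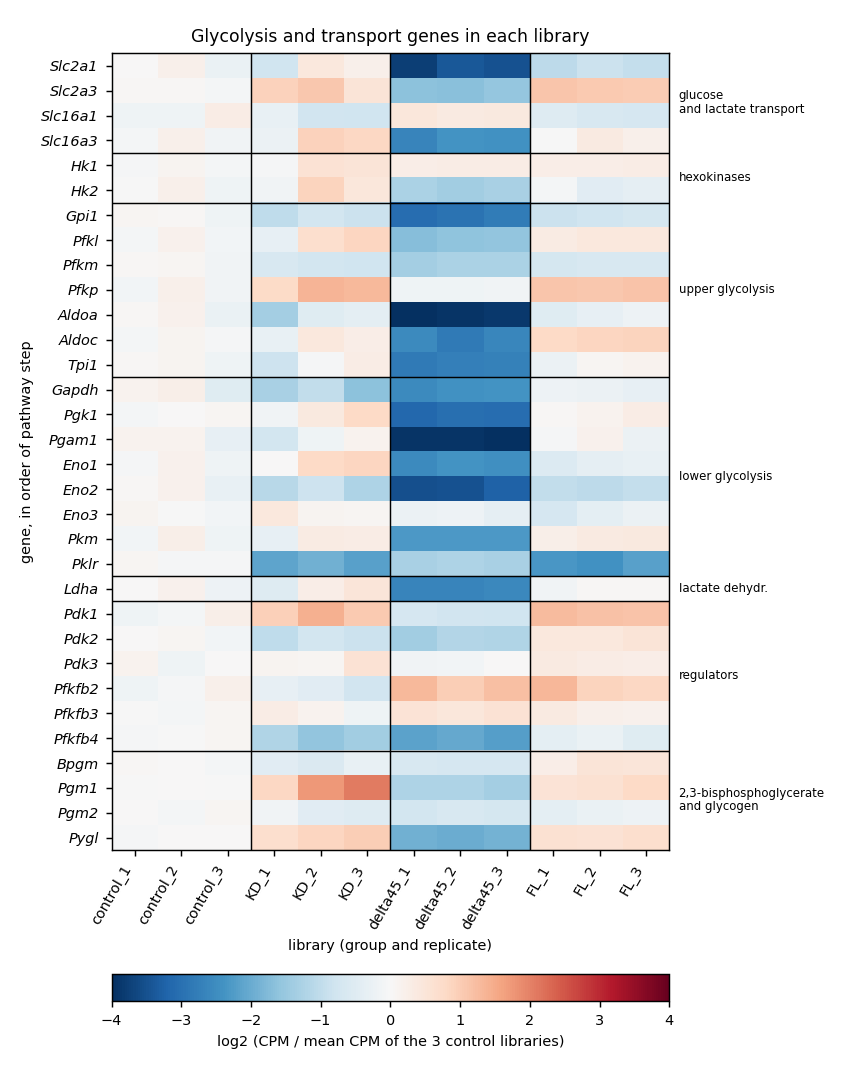
Level of the 32 tested genes (rows, in order of pathway step) in the 12 libraries (columns), as log2 of CPM over the mean of the 3 control libraries. The delta45 columns are blue for most rows, down to a log2 near -4 for Aldoa and Pgam1. Rows that are pale or red there include Slc16a1, Hk1, Pfkfb2, Pfkfb3, Pfkp, Eno3 and Pdk3.

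Both glucose carriers fell in delta45 against KD, Slc2a1 by more than any of the 32 genes except Pgam1. Slc2a1, which encodes the carrier GLUT1, the main glucose transporter of developing red cells, was read at 237, 270.0 and 194 CPM in control, 134, 313 and 268 in KD, 17.2, 22.4 and 21.0 in delta45 and 114, 128 and 121 in FL. Its delta45 libraries lay far below all others, its FL libraries lay together below control and KD, and KD replicate 1 lay below its partners. Slc2a1 was 11.8-fold lower in delta45 than in KD (log2 -3.56 ± 0.26, edgeR adjusted p = 3.63e-07) and 6.0-fold higher in FL than in delta45 (edgeR adjusted p = 2.24e-06). Slc2a3, which encodes the high-affinity carrier GLUT3, was read at 304, 307 and 281 CPM in control, 569, 622 and 427 in KD, 95.4, 93.9 and 101 in delta45 and 640.5, 612 and 596 in FL. It was high in KD and FL, lower in control and lowest in delta45, with no overlap of delta45 with any other group. Slc2a3 was 5.56-fold lower in delta45 than in KD (edgeR adjusted p = 2.65e-08).

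The lactate carriers moved in opposite directions. Slc16a3, which encodes the exporter MCT4 of glycolytic cells, was read at 456, 556 and 434 CPM in control, 406, 907 and 857 in KD, 77.8, 92.0 and 89.8 in delta45 and 477, 622 and 549 in FL, and fell 8.36-fold in delta45 against KD (log2 -3.06 ± 0.25, edgeR adjusted p = 8.98e-07). Slc16a1, which encodes MCT1, a carrier that moves lactate and pyruvate either way, was read at 137, 136 and 188 CPM in control, 126, 90.0 and 87.7 in KD, 212, 199 and 199 in delta45 and 108, 99.4 and 96.0 in FL. Its 3 delta45 libraries were the highest of the 12. Slc16a1 was 2.0-fold higher in delta45 than in KD (log2 1.0 ± 0.16, edgeR adjusted p = 0.000143) and 2.01-fold lower in FL than in delta45 (edgeR adjusted p = 0.000117). Per kilobase of exon, Slc16a1 made up 72.2 to 76.6% of the 2 lactate carriers in delta45 and 10.7 to 34.2% in the other 9 libraries.

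**Figure D3:**
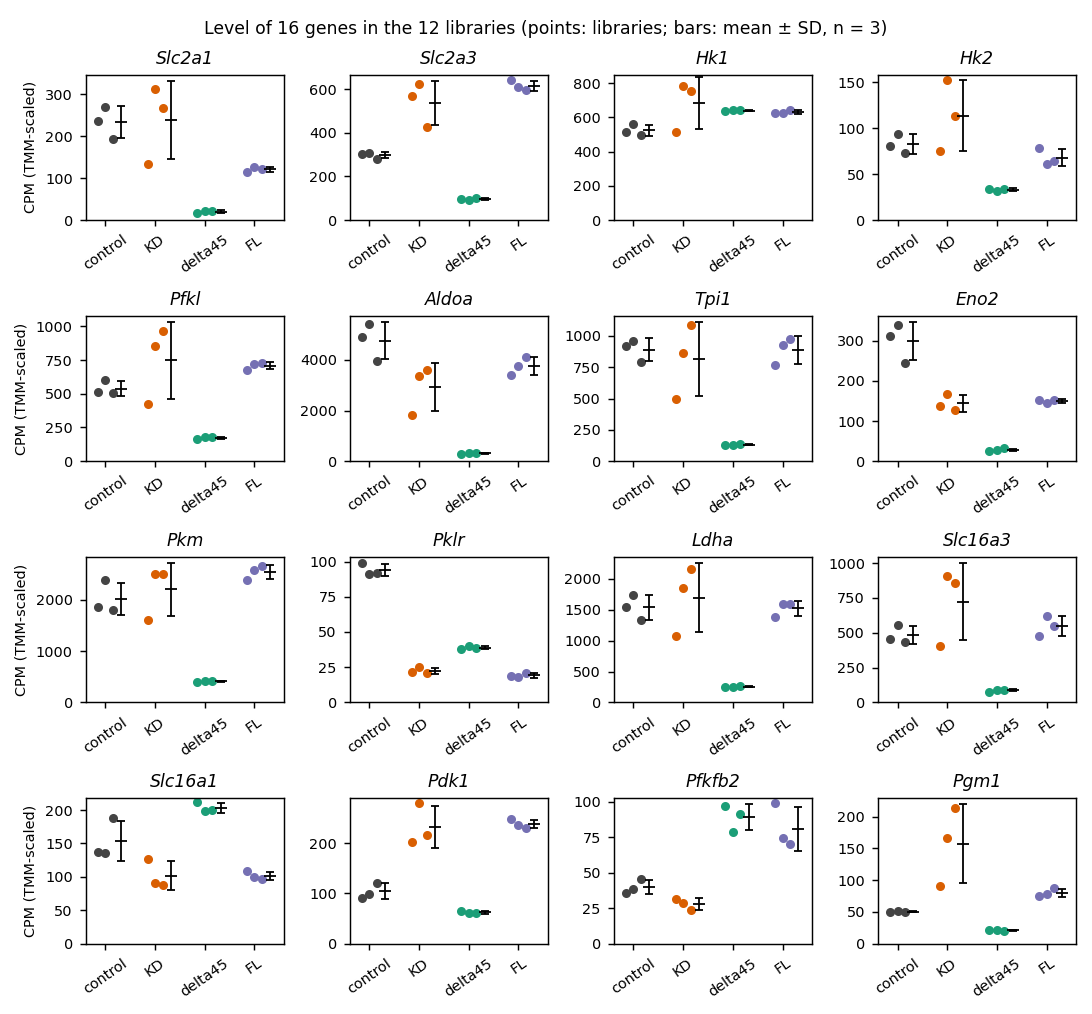
CPM after TMM scaling (vertical axes, from 0) of 16 of the genes in the 4 groups (horizontal axes), with a point for each library and the mean ± SD of the 3 beside it. The delta45 points sit below the other groups for most genes, above them for Slc16a1, with FL for Pfkfb2, between control and KD for Pklr, and within the range of KD for Hk1.

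Hexokinases trap glucose as glucose 6-phosphate. Hk1, the form that feeds red cells, was read at 514, 563 and 499 CPM in control, 513, 786 and 755 in KD, 636, 642 and 643 in delta45 and 625, 627 and 644 in FL. The delta45 and FL libraries of Hk1 lay within the range of the KD libraries, and the delta45 change against KD did not pass (edgeR adjusted p = 0.559). Hk2, an inducible form bound to mitochondria, was read at 80.8, 94.1 and 72.5 CPM in control, 75.4, 152 and 113 in KD, 34.2, 31.7 and 33.5 in delta45 and 78.3, 60.8 and 64.2 in FL. The delta45 libraries of Hk2 lay below the other 9, and it was 3.42-fold lower than in KD (edgeR adjusted p = 1.57e-05). Summed per kilobase, the hexokinases stood at 80.6 ± 0.374 CPM per kb (SD, n = 3) in delta45 and 99.2 ± 23.5 in KD, and Hk1 made up 93.1 ± 0.276% of that sum in delta45 and 81.1 ± 2.43% in KD. The summed delta45 level of this step thus lay within the KD range of 72.7 to 118 CPM per kb.

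Upper glycolysis, from glucose 6-phosphate to the triose phosphates, was lower at all 7 genes in delta45 against KD. Aldoa, the aldolase of muscle and red cells, was read at 4901, 5407 and 3958 CPM in control, 1841, 3364 and 3590 in KD, 279, 314 and 328 in delta45 and 3419, 3778 and 4132 in FL. The delta45 libraries held the lowest values by a wide margin, KD replicate 1 came next, and the control libraries overlapped only with FL. Aldoa was 9.55-fold lower in delta45 than in KD (log2 -3.26 ± 0.23, edgeR adjusted p = 2.14e-07) and 12.3-fold higher in FL than in delta45 (edgeR adjusted p = 3.54e-08). Aldoa alone held 19.0 to 33.8% of the uniquely placed reads of the 34 genes in the other groups and 8.27 to 9.32% in delta45. Gpi1, which turns glucose 6-phosphate into fructose 6-phosphate, was read at 869, 854 and 735 CPM in control, 401, 494 and 456 in KD, 99.4, 105 and 117 in delta45 and 452, 468 and 507 in FL, a fall of 4.21-fold in delta45 against KD (edgeR adjusted p = 4.49e-08). Tpi1, which interconverts the triose phosphates, was read at 919, 962 and 790.0 CPM in control, 499.9, 860.3 and 1088 in KD, 127, 133 and 137 in delta45 and 765, 931 and 972 in FL, a fall of 6.17-fold (edgeR adjusted p = 1.23e-06). For Gpi1 and Tpi1 alike the delta45 libraries lay together below the other 9. Aldoc, the aldolase of brain, fell from 111 to 183 CPM in the KD libraries to 19.4 to 23.4 in delta45 and was highest in FL, at 240.4 to 253.

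Phosphofructokinase commits sugar to the path, and its 3 subunit genes fell by different amounts. Pfkl, the liver form that red cells also carry, was read at 509.8, 601 and 502 CPM in control, 425, 856 and 966 in KD, 163, 176 and 178 in delta45 and 678, 722 and 726 in FL. Its delta45 libraries lay below the rest and KD replicate 1 lay apart from its partners, below control. Pfkl fell 4.34-fold in delta45 against KD (edgeR adjusted p = 7.75e-06), Pfkp, the platelet form, 2.51-fold (edgeR adjusted p = 8.86e-06), and Pfkm, the muscle form, 1.49-fold (edgeR adjusted p = 0.000191). Pfkp stood at 186 to 191 CPM in delta45, just under the control range of 192 to 243, and Pfkm at 149 to 157 against 345 to 396 in control. Per kilobase, Pfkm made up 53.6 ± 0.269% (SD, n = 3) of the 3 subunits in delta45 and 54.1 ± 2.09% in control, against 33.2 ± 10.1% in KD and 33.9 ± 0.336% in FL, and Pfkp made up 7.48 ± 0.484% in control and 16% on average in each of the 3 knockdown groups. Part of the Pfkp transcript recurs in another gene, so its share may be read low in each group. The length used can lower it further: the exons of all Pfkp transcripts sum to 13401 bases, and its longest coding transcript has 4145. These lengths are 6675 and 3730 for Pfkl, and 3340 and 2879 for Pfkm. The order of the subunits, and the likeness of the Pfkm shares in delta45 and control, thus depend on the exon lengths used.

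Lower glycolysis, which makes ATP and pyruvate, held the gene with the largest fall. Pgam1, the phosphoglycerate mutase, was read at 46.1, 45.9 and 33.0 CPM in control, 25.2, 37.3 and 45.7 in KD, 2.77, 2.75 and 2.5 in delta45 and 40.7, 46.7 and 35.5 in FL. The other 3 groups overlapped each other, and the delta45 libraries lay far below them. Pgam1 was 13.4-fold lower in delta45 than in KD (log2 -3.74 ± 0.24, edgeR adjusted p = 1.15e-07) and 15.2-fold higher in FL than in delta45 (edgeR adjusted p = 2.52e-08). Pgk1, the phosphoglycerate kinase that makes the first ATP of the path, was read at 79.1, 85.0 and 88.0 CPM in control, 75.9, 109.9 and 147 in KD, 9.56, 10.5 and 10.2 in delta45 and 87.3, 92.7 and 102 in FL, with a fall of 11-fold in delta45 against KD (edgeR adjusted p = 5.71e-08). Its KD libraries spanned the control and FL ranges.

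Since many of the genes fell together, the DNA before their start sites was searched for short motifs. Printed here, 5′ to 3′ on the + strand of GRCm38.p6 from RefSeq, are the 250 bases that end at the start site of the 3 genes with the largest falls in delta45 against KD and of Slc16a1, which rose. They are Pgam1 at chr19:41911621-41911870, Slc2a1 at chr4:119108495-119108744, Pgk1 at chrX:106186850-106187099 and Slc16a1 at chr3:104638414-104638663. Capitals mark ACGTG or GCGTG on either strand, the core of HIF-1 sites.
Pgam1: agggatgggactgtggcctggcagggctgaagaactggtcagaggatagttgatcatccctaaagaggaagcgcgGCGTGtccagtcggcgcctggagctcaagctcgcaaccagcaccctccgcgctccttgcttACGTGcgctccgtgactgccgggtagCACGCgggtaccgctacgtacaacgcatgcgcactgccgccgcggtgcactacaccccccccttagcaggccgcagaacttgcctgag
Slc2a1: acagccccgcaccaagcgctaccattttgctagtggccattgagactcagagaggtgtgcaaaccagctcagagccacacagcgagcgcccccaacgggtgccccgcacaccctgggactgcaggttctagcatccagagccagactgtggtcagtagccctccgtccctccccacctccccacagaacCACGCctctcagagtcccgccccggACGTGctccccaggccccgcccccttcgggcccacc
Pgk1: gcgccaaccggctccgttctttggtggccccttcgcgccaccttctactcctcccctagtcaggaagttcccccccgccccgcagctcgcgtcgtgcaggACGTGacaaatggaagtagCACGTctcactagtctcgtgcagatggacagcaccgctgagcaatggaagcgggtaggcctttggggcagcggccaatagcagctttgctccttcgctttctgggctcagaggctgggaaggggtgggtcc
Slc16a1: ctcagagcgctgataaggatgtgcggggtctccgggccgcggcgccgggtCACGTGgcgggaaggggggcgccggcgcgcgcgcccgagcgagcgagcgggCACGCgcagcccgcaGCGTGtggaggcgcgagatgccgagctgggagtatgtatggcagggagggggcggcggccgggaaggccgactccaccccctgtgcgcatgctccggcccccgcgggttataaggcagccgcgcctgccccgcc
Each of the 4 stretches holds at least 2 such cores, the riser Slc16a1 included. The stretch of Slc16a1 also holds CACGTG, the E-box letters that MYC and MAX are known to bind.

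Promoters of 33 of the 34 genes were matched, in 50 windows of 300 bases (250 before and 50 after a start), with Slc2a3 the exception. ACGTG, read on both strands, was in 50% of these windows and in 25.6% of the windows of all tested genes. GCGTG was in 50% against 51.2%. Either core was in 76% against 62.5%, and CACGTG, which contains ACGTG, was in 12% against 10%. AGATAA or TGATAA, letters bound by GATA factors, were in 20% against 10.7%. The median GC content of the windows was 58.3% for the genes here and 61% for all tested genes. Of the 25 genes with a promoter that fell in delta45 against KD, 22 held either core in a window, Gpi1, Tpi1 and Eno2 being without, as did 3 of the 4 that rose and 1 of the 2 that did not pass. Counted the same way, by gene, either core was in a window of 84.8% of the 33 genes and of 68.5% of all tested genes with a promoter. A match of letters is no measure of binding, and several windows can belong to 1 gene. The tested genes with a promoter numbered 9094 in 11593 windows, so the genes here had more windows each, which makes a match by gene likelier. The 33 also include Hk3 and Ldhb, which were not tested.

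Gapdh, which oxidises the triose phosphate and is often used as a reference gene, was not level across the groups in its uniquely placed reads. It was read at 22.1, 23.3 and 14.2 CPM in control, 8.02, 10.1 and 6.30 in KD, 3.37, 3.71 and 3.78 in delta45 and 17.3, 16.9 and 15.7 in FL. The KD libraries lay below control and FL, and the delta45 libraries lay below KD. Gapdh fell 2.43-fold in KD against control (edgeR adjusted p = 0.000271), fell a further 2.24-fold in delta45 against KD (edgeR adjusted p = 0.000701), and was 2.05-fold higher in FL than in KD (edgeR adjusted p = 0.00104). The difference between FL and control did not pass (edgeR adjusted p = 0.305). Summed over the 3 libraries of a group, Gapdh had 679 reads in control, 280 in KD, 180 in delta45 and 578 in FL. These levels count only reads with a unique place in the genome, and the share of reads with several places, 38.69% to 53.31% of a library, was lowest in delta45. Of the 50-base windows of the transcript, 82.5% in Gapdh, 72.2% in Eno1, 68% in Pgk1, 41.5% in Pgam1 and 34.4% in Pkm occur unchanged in other annotated genes, so the levels of these 5 genes are not comparable with those of the others. The same share was 27% in Ldhb, 25.3% in Gpi1, 25.1% in Pfkfb2, 23.2% in Pklr, 17.1% in Pfkp, 16.6% in Ldha and 13.5% in Aldoa, whose levels may be read low against other genes, and at most 7.51% in the rest. Of the 14 tested genes with 0 such windows, 12 fell in delta45 against KD, by 0.33 to 3.06 on the log2 scale, 1 rose (Slc16a1) and 1 did not pass (Bpgm).

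Enolase and pyruvate kinase close the path. Eno1, the form found in most tissues, was read at 95.8, 111 and 87.3 CPM in control, 98.6, 169.9 and 178 in KD, 16.7, 18.5 and 17.9 in delta45 and 67.0, 76.4 and 80.3 in FL, and fell 8.39-fold in delta45 against KD (edgeR adjusted p = 1.42e-07). Eno2, best known from neurons, was read at 312, 338 and 246 CPM in control, 138, 167 and 127 in KD, 26.2, 26.8 and 31.8 in delta45 and 151, 144 and 153 in FL, a fall of 5.09-fold (edgeR adjusted p = 9.14e-08). Eno1 and Eno2 were lowest in all 3 delta45 libraries, with Eno1 highest on average in KD and Eno2 highest in control. Eno3, the muscle form, moved least, from 24.3 to 31.2 CPM in KD to 17.9 to 20.0 in delta45 (1.4-fold lower, edgeR adjusted p = 0.0109).

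Pyruvate kinase showed opposite changes at its 2 genes. Pkm, the form of proliferating and muscle cells, was read at 1867, 2383 and 1803 CPM in control, 1600, 2506 and 2500 in KD, 407, 410.3 and 411 in delta45 and 2383, 2576 and 2660 in FL, and fell 5.38-fold in delta45 against KD (edgeR adjusted p = 2.42e-07). Pklr, the form of liver and red cells, was read at 99.2, 91.2 and 91.6 CPM in control, 21.7, 25 and 20.9 in KD, 38.1, 40.1 and 38.4 in delta45 and 18.8, 17.7 and 21.1 in FL. The Pklr libraries of control lay highest, those of delta45 next, and those of KD and FL lowest with overlap. Pklr fell 4.18-fold in KD against control (log2 -2.06 ± 0.11, edgeR adjusted p = 3.29e-08) and was 1.73-fold higher in delta45 than in KD (edgeR adjusted p = 5.95e-05). Neither construct group reached control, Pklr being 2.42-fold lower in delta45 (edgeR adjusted p = 4.46e-07) and 4.88-fold lower in FL (edgeR adjusted p = 4.43e-09). Ldha, which turns pyruvate into lactate and held all counted reads of the Ldha and Ldhb pair, was read at 1548, 1745 and 1337 CPM in control, 1070, 1858 and 2159 in KD, 250.1, 246 and 261 in delta45 and 1389, 1600 and 1597 in FL, and fell 6.72-fold in delta45 against KD (edgeR adjusted p = 4.93e-07). The Ldha libraries of control, KD and FL overlapped.

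**Figure D4:**
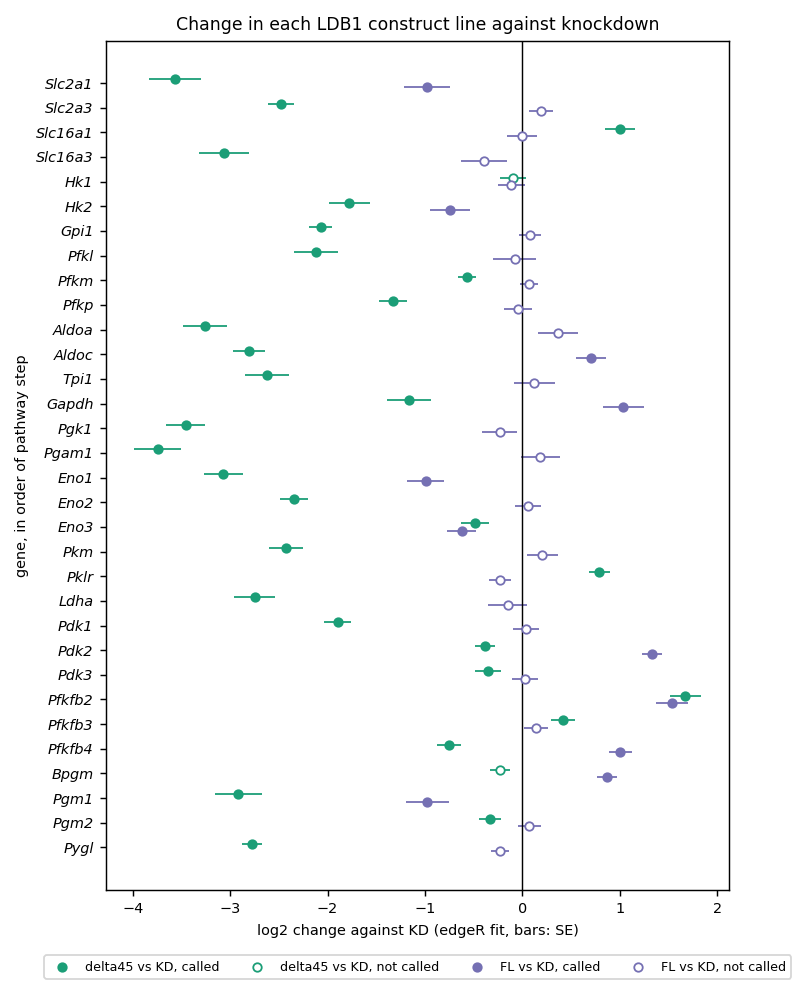
Log2 change (horizontal axis, bars ± SE of the edgeR fit) of each of the 32 tested genes (vertical axis) in delta45 and in FL against the same KD libraries, filled where the edgeR adjusted p was under 0.05. The delta45 points reach -3.74 at Pgam1, while the FL points lie between -0.99 at Eno1 and 1.54 at Pfkfb2.

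Enzymes that regulate the path followed no common direction. The PFKFB enzymes make and remove fructose 2,6-bisphosphate, the activator of phosphofructokinase. Pfkfb2 was read at 35.4, 38.3 and 45.2 CPM in control, 31.3, 28.8 and 23.5 in KD, 96.5, 78.8 and 91.2 in delta45 and 98.8, 74.0 and 69.9 in FL. Both construct groups lay above control and KD and overlapped each other. Pfkfb2 was 3.19-fold higher in delta45 (edgeR adjusted p = 3.31e-06) and 2.90-fold higher in FL (edgeR adjusted p = 5e-06) than in the KD libraries that they share. Pfkfb4 was read at 58.6, 60.2 and 64.0 CPM in control, 26.4, 20.4 and 23.5 in KD, 13.8, 14.8 and 13.1 in delta45 and 46.5, 51.0 and 44.0 in FL, falling in the order control, FL, KD, delta45 with no overlap between neighbours. It was 2.59-fold lower in KD than in control (edgeR adjusted p = 1.84e-06), 1.69-fold lower in delta45 than in KD (edgeR adjusted p = 0.00019) and 2.0-fold higher in FL than in KD (edgeR adjusted p = 1.36e-05). Pfkfb3 ran from 26.8 to 37.4 CPM in KD and from 42.0 to 45.0 in delta45 (1.34-fold higher, edgeR adjusted p = 0.0115).

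The PDK enzymes shut pyruvate out of mitochondria by inactivating pyruvate dehydrogenase. Pdk1 was read at 91.5, 99.0 and 122 CPM in control, 202, 279 and 215 in KD, 65.6, 60.9 and 60.5 in delta45 and 248, 236 and 231 in FL. KD and FL were high and overlapped, control was lower and delta45 lowest. Pdk1 was 2.23-fold higher in KD than in control (edgeR adjusted p = 1.95e-05) and 3.72-fold lower in delta45 than in KD (edgeR adjusted p = 3.14e-07). Pdk2 was read at 106, 110.0 and 97.0 CPM in control, 51.9, 62.5 and 57.5 in KD, 39.6, 46.5 and 45.8 in delta45 and 141, 141 and 150.3 in FL, 2.52-fold higher in FL than in KD (edgeR adjusted p = 4.64e-07). Pdk3 ranged from 81.1 to 136 CPM over all libraries and fell 1.27-fold in delta45 against KD (edgeR adjusted p = 0.036).

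Side branches of the path were also read. Bpgm, which makes 2,3-bisphosphoglycerate in red cells, was read at 76.8, 74.3 and 70.8 CPM in control, 54.5, 49.5 and 60.9 in KD, 47.8, 46.6 and 46.3 in delta45 and 89.9, 107 and 104 in FL, and it was 1.83-fold higher in FL than in KD (edgeR adjusted p = 1.9e-05). FL lay above control for Bpgm and the other groups below it, and the delta45 change against KD did not pass (edgeR adjusted p = 0.08). Pgm1, which joins glycogen to glycolysis by interconverting glucose phosphates, was read at 50.3, 50.9 and 50.1 CPM in control, 90.3, 166 and 214 in KD, 21.4, 21.2 and 19.7 in delta45 and 74.3, 77.4 and 87.2 in FL. The KD libraries of Pgm1 were the highest and the most spread. Pgm1 was 3.11-fold higher in KD than in control (edgeR adjusted p = 6.81e-05) and 7.54-fold lower in delta45 than in KD (edgeR adjusted p = 7.99e-07). Pygl, the liver form of glycogen phosphorylase, ran from 226 to 277 CPM in KD, 136 to 143 in control, 209 to 222 in FL and 35.5 to 37.5 in delta45, a fall of 6.85-fold in delta45 against KD (edgeR adjusted p = 1.54e-09). Pgm2, a relative of Pgm1 that prefers pentose phosphates, fell 1.26-fold (edgeR adjusted p = 0.0224).

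Set against all 9 other libraries, the 3 delta45 libraries were the lowest for 25 of the 32 genes and the highest for 2, Pfkfb3 and Slc16a1. Over all tested genes, delta45 was below the other 9 libraries at 14.1% and above them at 14.9%. The 5 genes with overlap were Hk1, Eno3, Pklr, Pdk3 and Pfkfb2. Against control alone, 25 of the 32 genes were lower in delta45 and 3 higher, beside 32.5% and 31.9% of all tested genes, with a median log2 change of -1.63, and the higher call of Slc16a1 was lost without control replicate 1 or 2 or delta45 replicate 1 (edgeR adjusted p = 0.0729 to 0.134). The direct comparison of the construct groups gave 26 genes higher in FL than in delta45 and 2 lower, Slc16a1 and Pklr, beside 25.8% and 27% of all tested genes, and a median log2 difference of 1.99. Red cell markers moved the same way, with 9 of 10 higher in FL than in delta45 and 0 lower (median log2 difference 2.03), as did megakaryocyte markers, with 5 of 7 higher and 0 lower (median 2.79). In delta45 against control, 6 of 10 red cell and 6 of 7 megakaryocyte markers were lower and 2 and 1 higher. The part of these shifts in the glycolytic values was not tested. Of the members higher in FL than in delta45, Pdk3 was lost with any FL library or delta45 replicate 1 or 2 left out (edgeR adjusted p = 0.0532 to 0.0705). With library totals in place of TMM, 24 were higher and 5 lower, and the share of higher among all called genes went from 48.8% to 29.2%.

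In FL, 11 of the 32 genes differed from KD. Of the 32, 6 rose (Aldoc, Gapdh, Pdk2, Pfkfb2, Pfkfb4 and Bpgm), 5 fell (Slc2a1, Hk2, Eno1, Eno3 and Pgm1) and 21 did not pass, beside 26.3% of all tested genes higher and 31.7% lower, and the median log2 change was 0.05 against -0.06 over all tested genes. Slc2a1 fell 1.97-fold (edgeR adjusted p = 0.00345), Eno1 1.99-fold (edgeR adjusted p = 0.000541) and Pgm1 1.97-fold (edgeR adjusted p = 0.00215). The abundant enzymes of the core path did not pass: the log2 change was 0.37 for Aldoa (95% interval -0.08 to 0.81, edgeR adjusted p = 0.147), 0.21 for Pkm (-0.14 to 0.56, edgeR adjusted p = 0.293) and -0.15 for Ldha (-0.58 to 0.28, edgeR adjusted p = 0.54). These intervals leave room for changes of up to 0.81 on the log2 scale. The counts rested on KD replicate 1: without it 8 rose and 10 fell. Hk2 was lost without KD replicate 2 (edgeR adjusted p = 0.0713). With library totals in place of TMM, which moved the median of all genes by -0.27, 6 rose and 10 fell, and the share of higher among all called genes went from 45.4% to 26.7%. Red cell markers rose in FL against KD at 7 of 10 genes, and their part in these values was not tested.

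In KD against control, genes of the path differed in both directions. Of the 32 genes, 7 rose (Slc2a3, Hk1, Pfkp, Eno1, Pdk1, Pgm1 and Pygl) and 12 fell (Slc16a1, Gpi1, Pfkm, Aldoa, Gapdh, Eno2, Pklr, Pdk2, Pfkfb2, Pfkfb4, Bpgm and Pgm2), beside 25.6% and 24.1% of all tested genes. The count that rose was no larger a share than over all genes, and the count that fell was a larger one. The median log2 change was 0.11 against 0.02 over all tested genes. Of those that rose, Pgm1 and Pfkp moved most, Pfkp by 2.23-fold (edgeR adjusted p = 3.1e-05). Of those that fell, Pklr moved most, followed by Pfkfb4, Gapdh and Eno2, the last by 2.07-fold (edgeR adjusted p = 4.49e-05). Gpi1 fell 1.82-fold (edgeR adjusted p = 4.6e-05) and Aldoa 1.62-fold (edgeR adjusted p = 0.0136). Without KD replicate 1, 15 of the genes rose and 12 fell, and with library totals in place of TMM 11 rose and 11 fell. Leaving out 1 of several libraries ended the calls of Hk1 (edgeR adjusted p up to 0.145, without KD replicate 2), Eno1 (up to 0.068, without KD replicate 2), Pgm2 (up to 0.059, without KD replicate 2) and Pfkfb2 (up to 0.0758, without control replicate 3), and that of Aldoa ended without control replicate 2 (0.0543). Red cell markers were lower in KD than in control at 5 of 10 genes and higher at 1, which was not tested as a source of these values.

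Set against control, FL differed at 18 of the 32 genes, near the share over all genes. Of the 32, 9 were higher in FL than in control (Slc2a3, Pfkp, Aldoc, Pdk1, Pdk2, Pfkfb2, Bpgm, Pgm1 and Pygl) and 9 lower (Slc2a1, Slc16a1, Gpi1, Pfkm, Eno2, Eno3, Pklr, Pfkfb4 and Pgm2), beside 28.1% and 31.2% of all tested genes. Red cell markers were higher in FL than in control at 7 of 10 genes and lower at 0, and megakaryocyte markers were higher at 4 of 7 and lower at 2, and their part in these values was not tested. The median log2 change was 0.08, and Slc2a3 (2.07-fold higher, edgeR adjusted p = 1.21e-05), Pdk1 (2.29-fold higher, edgeR adjusted p = 7.55e-06) and Slc2a1 (1.94-fold lower, edgeR adjusted p = 0.00394) are examples. Leaving out 1 library ended the calls of Eno3 (edgeR adjusted p up to 0.133, without FL replicate 1), Pgm2 (up to 0.213, without control replicate 3), Pgm1 (up to 0.0709, without FL replicate 3) and Pfkfb4 (up to 0.0818, without control replicate 3), and the replicate block ended that of Pgm2 (0.0564). Ldha gave a log2 change of -0.01 (95% interval -0.44 to 0.42, edgeR adjusted p = 0.958). With library totals in place of TMM, 6 were higher and 12 lower, and the share of higher among all called genes went from 47.4% to 31.8%. The make-up of the 2 glucose carriers differed between groups. Per kilobase of exon, Slc2a1 made up 61.7 ± 2.84% (SD, n = 3) of their sum in control, 46.8 ± 12.4% in KD and 28.8 ± 1.73% in FL. The same share was 30.0 ± 2.93% in delta45, where the sum was 19.1 ± 0.967 CPM per kb against 119 ± 2.38 in FL and 108 ± 12.7 in control. Which carrier led in control depends on the length used. The exons of all Slc2a3 transcripts sum to 7245 bases, and its longest coding transcript has 3959. In CPM, Slc2a3 was above Slc2a1 in control too, at means of 297 and 234.

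Neighbouring pathways were counted from lists of genes that were chosen, like the 34, with earlier results of these data known. Unless another comparison is named, each count below is for delta45 against KD, where 29.2% of all tested genes were higher and 30.7% lower. In the list for pyruvate entry into mitochondria 5 of 10 tested genes rose in delta45 against KD and 0 fell, with a median log2 change of 0.30, the largest being Pdp2, the phosphatase that reactivates pyruvate dehydrogenase, at 16.4, 14.0 and 14.7 CPM in KD and 56.6, 52.1 and 51.8 in delta45 (edgeR adjusted p = 4.92e-07). In FL against the same KD libraries 5 of the 10 also rose and 0 fell (median 0.35), beside 26.3% and 31.7% of all tested genes. The median difference between FL and delta45 was 0.01. In the tricarboxylic acid cycle 4 of 16 rose and 4 fell (median -0.10), near the shares over all genes. In the pentose phosphate pathway 1 of 7 rose and 4 fell (median -0.27). In glycogen metabolism 1 of 12 rose and 4 fell, among them Gys1, the glycogen synthase, from 95.5, 203 and 170.2 CPM in KD to 28.9, 34.1 and 34.7 in delta45 (edgeR adjusted p = 2.37e-06). Other sugar and monocarboxylate carriers gave 2 higher and 5 lower of 7. Bsg, the chaperone that brings MCT1 and MCT4 to the membrane, fell from 967, 1264 and 1443 CPM to 554, 555 and 558 (edgeR adjusted p = 1.74e-05).

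Targets of HIF-1 outside glycolysis fell at 11 of 12 tested genes in delta45 against KD and rose at 0, with a median log2 change of -2.51. Ndrg1, a stress-responsive gene, was read at 243, 236 and 204 CPM in control, 444, 666 and 550.2 in KD, 28.7, 26.8 and 31.3 in delta45 and 161, 147 and 172 in FL (log2 -4.26 ± 0.16 in delta45 against KD, edgeR adjusted p = 1.88e-09). Ankrd37, a HIF-1 target with ankyrin repeats, was read at 76.6, 166 and 142 CPM in KD and 1.97, 2.04 and 2.12 in delta45 (edgeR adjusted p = 1.19e-08). The delta45 libraries of both genes lay below the other 9. In FL against the same KD libraries 3 of the 12 rose and 8 fell, beside 26.3% and 31.7% of all tested genes, with a median of -0.94. Hif1a transcripts were read at 48.3, 48.9 and 68.0 CPM in control, 96.1, 63.4 and 53.7 in KD, 116, 93.9 and 93.6 in delta45 and 122, 116 and 119.6 in FL. Hif1a was higher in delta45 than in KD (log2 0.51 ± 0.19, edgeR adjusted p = 0.0388), with KD replicate 1 above delta45 replicates 2 and 3. HIF-1 protein was not measured, and its part in these values was not tested. Egln3, an oxygen-sensing hydroxylase that marks HIF-1 for breakdown, was read at 46.7, 87.0 and 60.6 CPM in KD, 0.141, 0.128 and 0.0757 in delta45 and 158, 161 and 159 in FL, with 0 reads in control.

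Among the factors that sense sugar and growth, Txnip and Myc moved in opposite directions. Of the 5 tested genes of this list 1 rose and 2 fell in delta45 against KD, with a median log2 change of 0.13. Over all tested genes 29.2% were higher and 30.7% lower. Txnip, which slows glucose uptake and is itself raised by glucose, was read at 4246, 3296 and 4507 CPM in control, 4042, 2155 and 2012 in KD, 165, 167 and 167 in delta45 and 4046, 4111 and 4127 in FL. The delta45 libraries lay far below the others, and KD replicate 1 lay with control. Txnip fell by 4.04 ± 0.24 on the log2 scale in delta45 against KD (edgeR adjusted p = 7.48e-08). Myc, a growth factor-driven transcription factor that is known to raise glycolytic genes, was read at 113, 114 and 109 CPM in control, 144, 236 and 199 in KD, 419, 479 and 477 in delta45 and 103, 127 and 125 in FL, with the delta45 libraries the highest of the 12 (log2 1.25 ± 0.16 against KD, edgeR adjusted p = 2.52e-05).

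**Figure D5:**
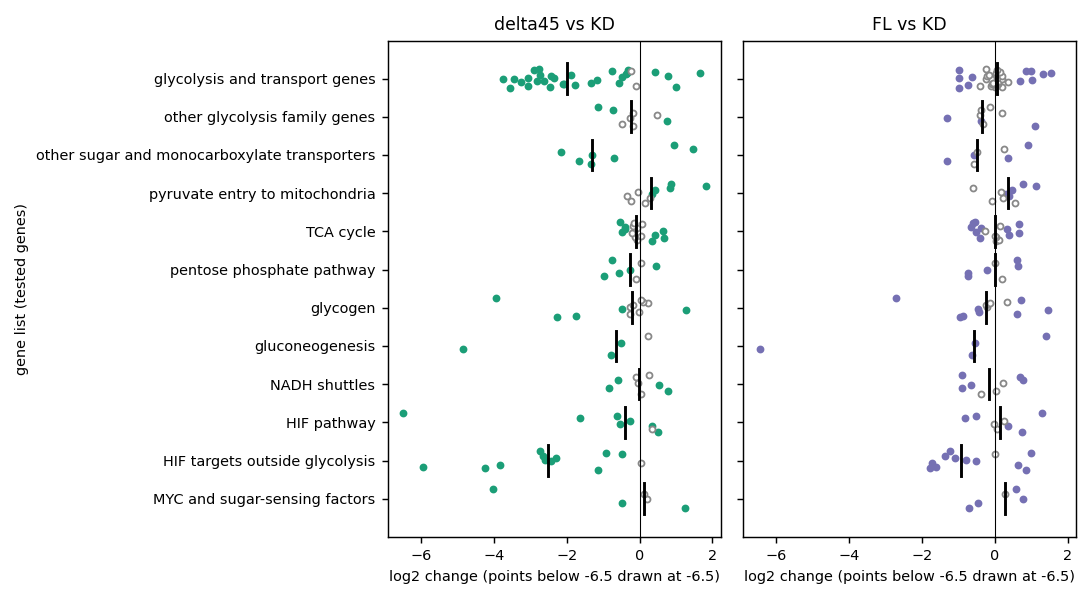
Log2 change (horizontal axes) of the tested genes of each list (vertical axis) in delta45 against KD and in FL against KD, with coloured points for edgeR adjusted p under 0.05, open grey points for the rest and a black bar at the median. In the delta45 panel the bar stands at -1.98 for glycolysis and transport genes and at -2.51 for HIF targets outside glycolysis, and near 0 for the tricarboxylic acid (TCA) cycle, and the one point drawn at -6.5 is Egln3.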

How the data were processed

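Polyadenylated RNA of 12 libraries, 3 in each of 4 groups taken from the labels, was measured as whole-number counts per Ensembl gene (37991 genes a file), deposited by the authors without normalization. The submitters' processing notes name build mm9 and DESeq 1.10.1, HTSeq 0.5.3p9, TopHat 1.4.1 and cutadapt 1.1, and the sources used here do not give their order, settings or annotation. Per the labels, the kit was TruSeq RNA V2. It does not mark strand, so overlapping and antisense genes cannot be told apart. The 5 rows that name no gene entered neither library sizes nor tests: reads with several places (38.69 to 53.31% of tallied reads per library), outside genes (2.117 to 6.133%), ambiguous (1.33 to 1.809%), and rows for low quality and unaligned reads. Symbols were matched for 32919 identifiers. Exon lengths and shared windows came from GENCODE M21 and promoters from RefSeq, on builds other than mm9. Exon lengths count the exons of all transcripts of a gene, so shares and sums per kilobase within a family depend on that choice.

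From the counts, edgeR 4.0.16 in R 4.3.3 (filterByExpr, TMM, glmQLFit and glmQLFTest) was fitted on all 12 libraries with a mean for each group, for 6 comparisons, with Benjamini-Hochberg adjustment over the 12837 genes tested and calls under 0.05. SE is the absolute log2 change over the root of F. An exact permutation test of 3 against 3 cannot give a two-sided p below 0.1, so the calls use a spread that genes share. The test was also run on simulated counts of KD and control alone, not of all 4 groups, and its recovery is not reported here. All 34 genes are accounted for, with values by library for those at 5 CPM or more in a group on which results turn. From each other list up to 3 genes at 5 CPM or more with the smallest adjusted p in delta45 against KD could be named, plus Ldb1, Hif1a and Myc. Genes and lists were chosen with earlier results of these data known. Replicates all differed by more than counting noise (lowest chi-square per degree of freedom 2.191). Same-numbered libraries deviated together from their group means in delta45 and KD (correlations 0.1022 to 0.2938) and in FL and KD (0.1211 to 0.2905). Between control and delta45 such correlations went down to -0.2553. An alternative fit with a replicate block gave all 4 groups the same replicate effects, control included, so it was not a fit of the paired groups alone. Other alternatives were RLE scaling, library totals, globin left out, other count filters, DESeq2 1.42.0, a test against 1.5-fold, the 2 groups alone, and each library left out. The value of a withheld marker is left out.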

Additional observations from a re-analysis of the deposited data

How the results depend on the processing

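Of 134 called changes of the 34 genes over 6 comparisons, 0 changed direction in 2010 alternative values. They remained called in 1906 of these and were not called in 104: 38 against a 1.5-fold change, 48 with 1 library left out, 17 in other settings, 0 with DESeq2 and 1 with the replicate block. With the replicate block, fitted over all 4 groups, 30 genes were called in delta45 against KD and 11 in FL against KD, as without it. In FL against control, where numbers did not pair libraries, Pgm2 was lost. Of 58 changes not called, 51 of 870 alternative values were called, 16 without KD replicate 1 and 16 with library totals.

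Tested against 1.5-fold, calls over the 12837 tested genes fell to 2387 (KD against control), 3506 (delta45 against KD), 3510 (FL against KD), 3233 (FL against delta45), 4596 (delta45 against control) and 3835 (FL against control). Of the 34 genes, 11 were then called in KD against control (6 lower), 6 in FL against KD (1 lower) and 8 in FL against control (5 higher, 3 lower). In delta45 against KD 20 were then lower and 3 higher, and in delta45 against control 22 were lower and 1 higher. In FL against delta45 23 were higher and 2 lower. With library totals, 11 were higher in KD against control, 10 lower in FL against KD and 5 lower in FL against delta45, and the log2 change of Pkm in FL against KD was -0.052. With 1 library left out, 5 to 15 genes were higher in KD against control, and 11 to 18 were called and 4 to 10 lower in FL against KD, the highest in each without KD replicate 1. The log2 change of Ldha then ran from -0.33 to 0.061 in FL against KD and from -0.055 to 0.082 in FL against control. The cause of these shifts was not tested. The depth of 2.5 to 3.78 CPM limits Pgam1 and Gapdh in delta45, and at 0 or 1 read Hk3 and Ldhb could not be compared.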

Other observations

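Other lists were read beside the path in delta45 against KD, where 29.2% of all tested genes were higher and 30.7% lower. In gluconeogenesis 0 of 4 tested genes rose and 3 fell, with Pck2, the mitochondrial form of the enzyme that makes phosphoenolpyruvate, at 126, 176 and 165 CPM in KD and 84.5, 92.7 and 90.9 in delta45 (edgeR adjusted p = 0.000152). In the shuttles that carry the reducing power of cytosolic NADH into mitochondria 2 of 8 rose and 2 fell, under the shares over all genes, and the aspartate aminotransferases went opposite ways. Got1, the cytosolic form, fell from 80.9, 87.5 and 77.0 CPM to 42.8, 45.2 and 47.7 (edgeR adjusted p = 3.13e-05), and Got2, the mitochondrial form, rose from 53.3, 41.4 and 50.3 CPM to 66.5, 68.9 and 74.6 (edgeR adjusted p = 0.00308). In FL against the same KD libraries Got1 and Got2 were both lower, Got2 at 27.9, 32 and 32.7 CPM (edgeR adjusted p = 0.000959), and Got2 was lower in FL than in delta45 (edgeR adjusted p = 6.21e-06).

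The list for the HIF pathway joined genes of HIF subunits with genes that sense oxygen or help to break HIF-1 down. Of its 8 tested genes 2 rose, Hif1a among them, and 5 fell in delta45 against KD. The same 29.2% and 30.7% of all tested genes stood beside these counts. Mean levels of the tested sensing and breakdown genes were all lower in delta45 than in KD, and those of the tested subunit genes all higher. Egln1, the main hydroxylase that marks HIF-1 for breakdown, was read at 342, 403 and 360.1 CPM in control, 190.3, 367 and 307 in KD, 85.5, 95.2 and 97.6 in delta45 and 154, 174 and 159 in FL, lowest in delta45 with no overlap (edgeR adjusted p = 1.26e-05 against KD). Of the other glycolysis family genes 1 of 8 rose and 2 fell, under those shares, the riser being Adpgk, an ADP-dependent glucokinase, from 40.6, 35.7 and 32.8 CPM in KD to 58.1, 59.8 and 64.6 in delta45 (edgeR adjusted p = 0.000504).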
